A study of Rattus with 6 samples.

Results

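Bone marrow stromal cells become osteoblasts under a small set of transcription factors, and the resulting osteoblasts secrete a few proteins that are found mainly in bone. The 9 genes described here are 5 of those factors (Runx1, Runx2, Sp7, Dlx5 and Msx2), 3 secreted matrix proteins (Ibsp, Spp1 and Bglap) and the membrane peptidase Phex. They were taken by gene name from the 16690 genes of the deposited expression table, and all 9 were in it. No rule on measured values picked them, but earlier results of these data were known when they were chosen. The cultures were mesenchymal stem cells (BMSCs) grown out of the marrow of Sprague Dawley rats and used at passages 3 to 5. Of the 6 libraries, 3 were made from animals modelling chronic kidney disease, CKD, and 3 from healthy animals as controls. All animals had a wild-type genotype, and neither their age nor the way CKD was produced is given in the sources used here. The series is concerned with vascular calcification in CKD, in which cells outside the skeleton take on genes of bone formation.

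Runx2 binds DNA together with its partner Cbfb and is required for the osteoblast lineage. Sp7 (osterix) acts downstream of Runx2, while the homeobox factors Dlx5 and Msx2 respond to bone morphogenetic proteins (BMPs), and Runx1 is the paralog best known from blood formation. Ibsp (bone sialoprotein) and Spp1 (osteopontin) are acidic proteins of the SIBLING family that carry an integrin-binding site and bind mineral. Osteopontin is also made in large amounts by macrophages. Bglap (osteocalcin) is a late product of mature osteoblasts, and Phex is a peptidase of osteoblasts and osteocytes whose loss causes phosphate wasting.

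Values are FPKM, the fragments assigned to a gene, scaled to the gene's length and to the total of the library. Whole fragment numbers were recovered behind every value, and the libraries held between 34404037 and 46892613 fragments. The libraries did not separate by group alone. CKD replicates 2 and 3 were alike (Pearson r = 0.996 across genes), control replicates 2 and 3 were alike (r = 0.998), and CKD replicate 1 was nearest to control replicate 1 (r = 0.967). Genes are not independent, so these correlations only describe the libraries. The disease model tag contradicts the title and column code in CKD replicate 1 and control replicate 2, and groups here follow the title and code. The extract protocol speaks of exosomes and the design text of cells, so which RNA was sequenced is not settled. Of the stromal markers in the flow cytometry panel, Thy1 lay between 504.5 and 801 FPKM and Itgb1 between 847 and 1204 in the 6 libraries. Ptprc, which encodes the leukocyte antigen CD45 that the cultures were reported to lack, reached 15.5 FPKM in CKD replicate 2 and 11.4 in CKD replicate 3.

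No member differed between CKD and control beyond the spread of these libraries in limma's moderated test (adjusted p under 0.05, here "called"). Only Runx1, Runx2 and Spp1 reached the level required for testing, 1 FPKM in at least 3 libraries, and 0 of these 3 were called, against 2.07% of the 10638 tested genes. None of the 3 had an unadjusted p under 0.05 in limma, while 2354 of the 10638 tested genes did. Limma-voom on the recovered fragments called 0 of the 3 as well. The other 6 members were at low levels and were tested only in a fit without that requirement, which called 0 of 9 members against 0.797% of all 16690 genes. In it, Sp7 and Msx2 had unadjusted p-values under 0.05. Over the 9 genes the median log2 difference was 0.076 in that fit, beside 0.031 over all genes, with 5 members higher in CKD and 4 lower.

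**Figure D1:**
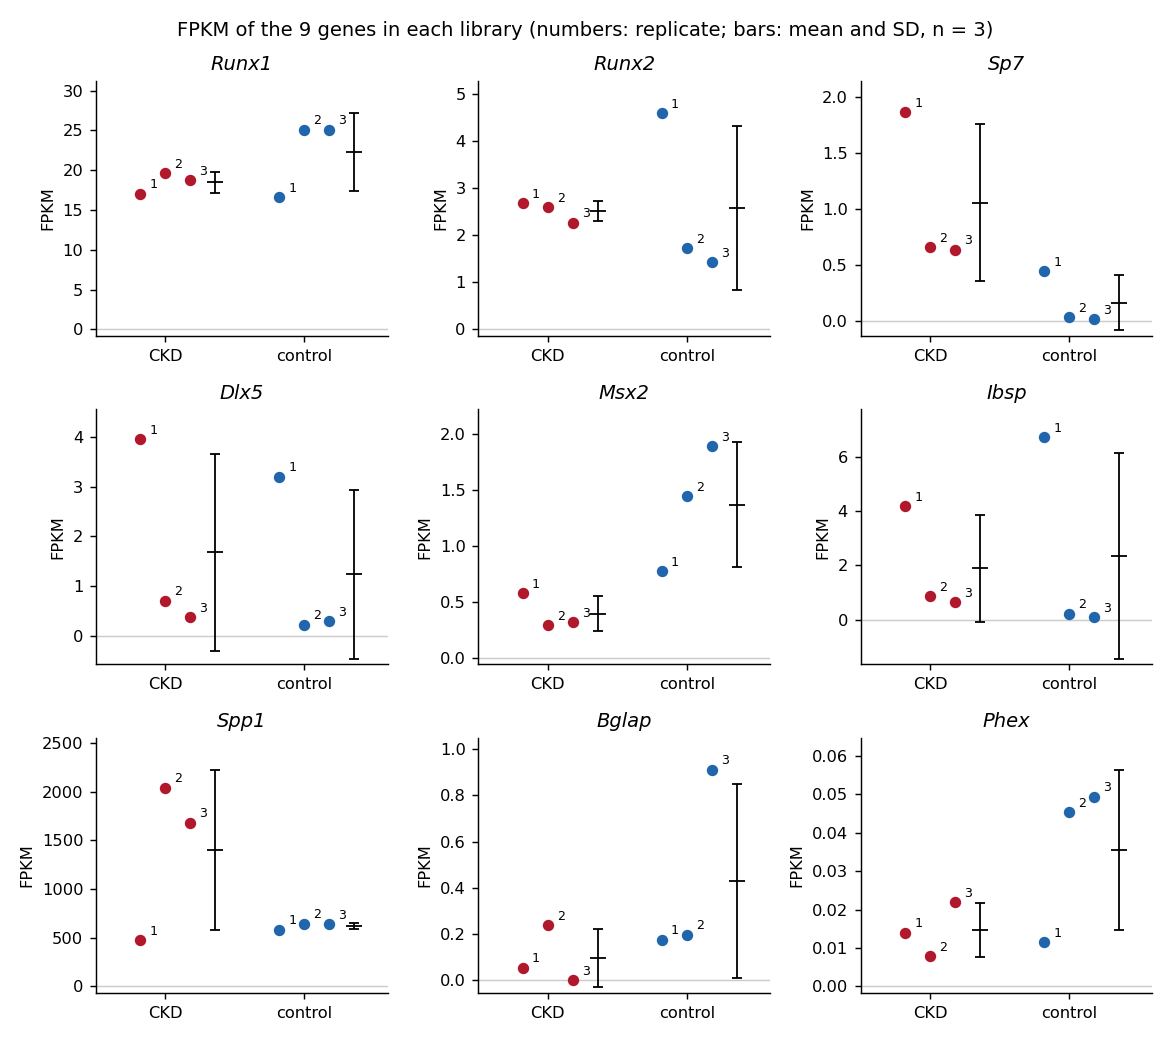
FPKM of each of the 9 genes (vertical axes, a separate linear scale for each gene) in the 3 CKD libraries (red) and the 3 control libraries (blue), numbered by replicate, with the mean and SD of each group in black. Sp7 is the gene with every CKD library above every control and Msx2 the gene with every CKD library below, while Dlx5 and Ibsp are high in the first replicate of both groups and Spp1 is high in CKD replicates 2 and 3.

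Among the transcription factors, Runx1 had the highest level per length. Runx1 (NCBI Gene 50662) measured 17.0, 19.6 and 18.7 FPKM in CKD and 16.6, 25.1 and 25.1 in control, always listed in the order of replicates 1, 2 and 3. The 3 CKD libraries lay close together, and the groups overlapped because control replicate 1 was the lowest library of all. Group means were 18.5 ± 1.31 FPKM in CKD and 22.3 ± 4.88 in control (SD, n = 3 each). The log2 difference was -0.24 ± 0.17 SE, with a 95% interval from -0.66 to 0.19 (limma adjusted p = 0.461). Without control replicate 1 it was -0.42 (adjusted p = 0.0419), and without control replicate 2 or 3 it was -0.14. Over all alternatives tried the adjusted p ran from 0.00131 to 0.955.

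Runx2 was present at a low level in every library. Runx2 (NCBI Gene 367218) measured 2.68, 2.60 and 2.27 FPKM in CKD and 4.60, 1.72 and 1.43 in control. Control replicate 1 was the highest library and control replicates 2 and 3 were the lowest, so the CKD values fell inside the control range. Means were 2.52 ± 0.216 FPKM in CKD and 2.58 ± 1.75 in control, and the mean FPKM was lower in CKD while the mean on the log scale was higher. The log2 difference was 0.08 ± 0.32 SE (95% interval -0.72 to 0.87, limma adjusted p = 0.914). That interval includes changes of more than 1.5-fold in either direction. In the GRCr8 gene table, the Runx2 gene overlaps Supt3h, which measured between 0.310 and 0.632 FPKM, and the uncharacterised gene LOC120094793, between 0.130 and 0.957. Whether the authors counted by strand is not given in the sources used here, so fragments of overlapping genes could be shared.

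The balance of the RUNX paralogs differed between libraries. The ratio of Runx1 to Runx2, both in FPKM, was 6.35, 7.55 and 8.24 in CKD replicates 1, 2 and 3. In control replicates 1, 2 and 3 it was 3.62, 14.5 and 17.5, so the CKD libraries again lay between the control libraries. Cbfb, the shared partner of both proteins, stood at 31.4, 38.6 and 35.7 FPKM in CKD and 28.6, 24.2 and 22.4 in control. Every CKD library was above every control library for Cbfb, but the difference was not called (log2 difference 0.48 ± 0.12 SE, limma adjusted p = 0.113). The authors' deposited table gives Cbfb a q-value of 0.0424.

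Sp7 was the member with all CKD libraries above all controls. Sp7 (NCBI Gene 300260) measured 1.86, 0.659 and 0.636 FPKM in CKD, from 228, 72 and 87 fragments. In control it measured 0.443, 0.0302 and 0.0164 FPKM, from 66, 4 and 2 fragments, so control replicates 2 and 3 lay near the limit of counting. Such separation in the higher direction was seen in 16.9% of all 16690 genes, and held for 1 of the 9 members. Means were 1.05 ± 0.70 FPKM in CKD and 0.163 ± 0.242 in control, a ratio of 6.44. On the log2(FPKM + 1) scale, which understates changes of low genes, the difference was 0.79 ± 0.27 SE (95% interval 0.12 to 1.45, limma without the level requirement, unadjusted p = 0.028, adjusted p = 0.215). Limma-voom on recovered fragments gave a log2 difference of 3.57 ± 1.27 SE (adjusted p = 0.213). The authors' deposited table gives a 6.16-fold higher mean in CKD with a q-value of 0.143. Grouped by the disease model tag in place of the title, the log2 difference was -0.20. Over the alternatives the adjusted p ran from 0.000611 to 0.902.

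Msx2 was the member with all CKD libraries below all controls. Msx2 (NCBI Gene 25483), a homeobox factor of the BMP response, measured 0.577, 0.294 and 0.317 FPKM in CKD, from 44, 20 and 27 fragments. In control it measured 0.777, 1.44 and 1.89 FPKM, from 72, 119 and 143 fragments. The first replicates of the 2 groups were the nearest to each other. Separation in the lower direction was seen in 8.59% of all genes, and held for 1 of the 9 members. Means were 0.396 ± 0.157 FPKM in CKD and 1.37 ± 0.560 in control, a ratio of 0.289, and the log2 difference was -0.74 ± 0.20 SE (95% interval -1.23 to -0.25, limma without the level requirement, unadjusted p = 0.0107, adjusted p = 0.152). The direction was the same in every alternative tried, with adjusted p-values from 0.00284 to 0.784. Without control replicate 1 the log2 difference was -0.93 and was called (adjusted p = 0.0327). With the mean of 20 haematopoietic and macrophage markers as a covariate it was -0.31 ± 0.19 SE (adjusted p = 0.700).

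Msx2 was also the 1 member of 9 with a q-value under 0.05 in the authors' deposited table (log2 fold change -1.86, q = 0.00738), where 11.3% of all genes had one. Its paralog Msx1 separated the groups in the same direction, at 2.20, 2.73 and 2.42 FPKM in CKD and 2.76, 8.55 and 9.16 in control (log2 difference -1.05 ± 0.39 SE, limma adjusted p = 0.201). Id1, a direct target of BMP signalling, stood at 13.6, 8.80 and 12.5 FPKM in CKD and 27.5, 22.6 and 22.7 in control. It missed the threshold by little (log2 difference -1.01 ± 0.17 SE, limma adjusted p = 0.0513). The authors' deposited q-values were 0.0139 for Msx1 and 0.000125 for Id1. Id1 was named after its values had been seen, and the other genes of the BMP pathway given next were not lower on average in CKD. Their roles in the pathway differ, and BMP signalling itself was not tested. Smad1, which carries the BMP signal to the nucleus, stood at 5.89, 7.02 and 8.37 FPKM in CKD and between 5.35 and 5.51 in control (log2 difference 0.32 ± 0.12 SE, limma adjusted p = 0.207). Smurf1, a ubiquitin ligase that limits BMP signalling, was at 13.5, 18.2 and 20.6 FPKM in CKD and 8.84, 14.3 and 13.7 in control (adjusted p = 0.280), and Smad5 lay between 8.31 and 9.27 FPKM in all libraries (adjusted p = 0.807).

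Dlx5 set the first replicates apart and not the groups. Dlx5 (NCBI Gene 25431) measured 3.96, 0.704 and 0.375 FPKM in CKD and 3.20, 0.226 and 0.299 in control, from between 14 and 227 fragments. CKD replicate 1 and control replicate 1 stood far above the other 4 libraries, and the groups overlapped. Means were 1.68 ± 1.98 FPKM in CKD and 1.24 ± 1.70 in control. The log2 difference of 0.27 ± 0.69 SE had a 95% interval from -1.46 to 1.99 (limma without the level requirement, adjusted p = 0.856). Its direction turned when CKD replicate 1 was left out (-0.30), and also on leaving out the second (-0.044) or the third control (-0.0025). Its genomic neighbour Dlx6 was likewise highest in both first replicates, with 0.985, 0.349 and 0.378 FPKM in CKD and 1.03, 0.0186 and 0.0608 in control.

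Of the matrix proteins, Spp1 was by far the most abundant and had the largest SD within CKD in FPKM, though not relative to its mean. Spp1 (NCBI Gene 25353) measured 476, 2043 and 1682 FPKM in the CKD libraries and 584, 644 and 637 in the controls. CKD replicates 2 and 3 were above every control, CKD replicate 1 was the lowest of the 6 libraries, and the 3 controls were nearly equal. Means were 1400 ± 820 FPKM in CKD and 622 ± 32.9 in control, a ratio of 2.25. The log2 difference was 0.92 ± 0.55 SE (95% interval -0.44 to 2.29, limma adjusted p = 0.374). Without CKD replicate 1 it was 1.58 (adjusted p = 0.00686), and without CKD replicate 2 it was 0.53 (adjusted p = 0.707). Over all alternatives the adjusted p ran from 2.34e-05 to 0.941.

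Macrophage markers were high in the same libraries as Spp1. The summed level of 20 haematopoietic and macrophage markers was 304.5, 3447 and 2334 FPKM in the CKD libraries and 419.6, 22.7 and 14.6 FPKM in the controls. All 16 tested markers of that list had a positive log2 difference. Of these, 0 were called by limma or limma-voom. In limma 11 had an unadjusted p under 0.05, beside 2354 of the 10638 tested genes. Cd68, a lysosomal protein of macrophages, was at 11.8 FPKM in CKD replicate 1 but at 234.5 and 170 in CKD replicates 2 and 3. Csf1r, the receptor that macrophages depend on, was at 1.42 FPKM in the former and at 25.7 and 21.0 in the latter. In control replicates 2 and 3, C1qc was listed at 0, and in control replicate 3 so were C1qb and Adgre1. The order was not the same throughout. Control replicate 1 had more of these markers than control replicates 2 and 3 (Cd68 at 21.8 FPKM against 1.44 and 0.566) but slightly less Spp1. With the mean of the marker list as a covariate, the log2 difference of Spp1 was -0.24 ± 0.59 SE (limma adjusted p = 0.941). Because the markers were themselves highest in CKD replicates 2 and 3, that fit separates group from marker level poorly. Fewer cells of a type and less RNA per cell cannot be told apart in bulk libraries.

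**Figure D2:**
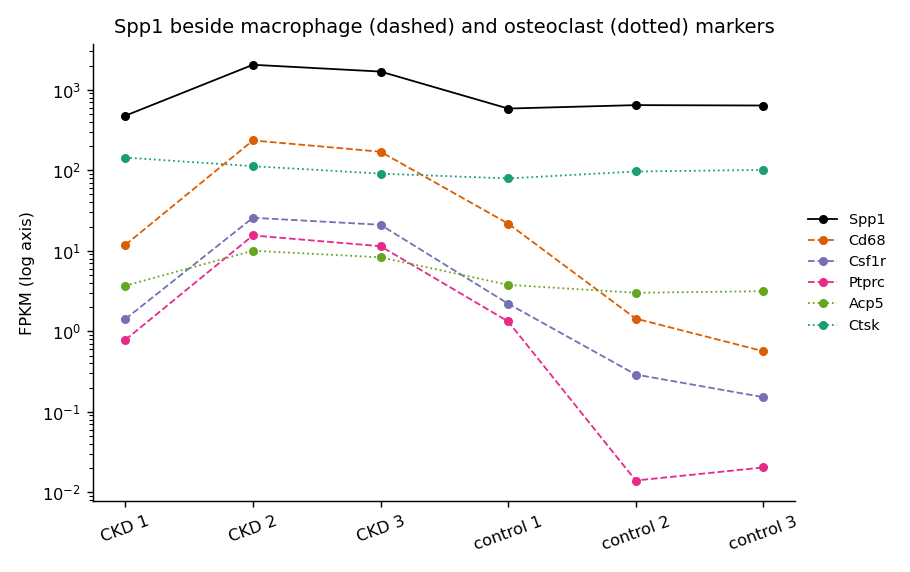
FPKM on a log axis of Spp1 (black), of the macrophage markers Cd68, Csf1r and Ptprc (dashed) and of the osteoclast markers Acp5 and Ctsk (dotted) in the 6 libraries. Spp1 and the macrophage markers all peak in CKD replicates 2 and 3, where Spp1 is at 2043 and 1682 FPKM, while in control replicates 2 and 3 Spp1 stays at 644 and 637 FPKM with the macrophage markers near their lowest levels.

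Genes of osteoclasts, which also derive from the macrophage lineage, gave a mixed picture beside Spp1. Of 10 osteoclast markers, 8 were in the table and 6 were tested, all with a positive log2 difference and 0 called by limma or limma-voom. In limma 4 were at an unadjusted p under 0.05, beside 2354 of the 10638 tested genes. Acp5, the tartrate-resistant phosphatase of osteoclasts, stood at 3.69, 10.0 and 8.29 FPKM in CKD and 3.77, 3.01 and 3.15 in control, with its highest values in the libraries where Spp1 was highest. Ctsk, a collagen-degrading protease that fibroblasts also make, was highest in CKD replicate 1 (144 FPKM) and lay between 79.2 and 112 in the other libraries. The part of either cell type in the Spp1 values was not tested.

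Ibsp, which lies only 3 genes from Spp1 in the GRCr8 gene table, had a different pattern. Ibsp (NCBI Gene 24477) measured 4.17, 0.869 and 0.659 FPKM in CKD, from 312, 58 and 55 fragments. In control it measured 6.72, 0.222 and 0.108 FPKM, from 611, 18 and 8 fragments. The first replicates of both groups were the high libraries, with control replicate 1 the highest of all, and control replicates 2 and 3 were the lowest. Means were 1.9 ± 1.97 FPKM in CKD and 2.35 ± 3.78 in control, so the mean FPKM was lower in CKD, while the log2 difference was 0.21 ± 0.89 SE (95% interval -2.01 to 2.42, limma without the level requirement, adjusted p = 0.916). The direction turned without CKD replicate 1 (-0.31), control replicate 2 (-0.21) or control replicate 3 (-0.28). The ratio of Spp1 to Ibsp in FPKM was 114 and 86.9 in the first replicates of CKD and control and between 2350 and 5913 in the other 4 libraries.

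Osteocalcin RNA was close to the limit of counting. Bglap (NCBI Gene 25295) measured 0.0532, 0.239 and 0 FPKM in CKD, from 1, 4 and 0 fragments, and 0.175, 0.197 and 0.912 FPKM in control, from 4, 4 and 17 fragments. For this short gene, 3 fragments are worth between 0.131 and 0.179 FPKM, so only the value of control replicate 3 stands well clear of that level. The log2 difference was -0.35 ± 0.21 SE (95% interval -0.87 to 0.18, limma without the level requirement, adjusted p = 0.400), and was not called at these few fragments and this spread between libraries. Without control replicate 3 it was -0.12. Phex (NCBI Gene 25512) was lower still, at 0.0140, 0.00786 and 0.0220 FPKM in CKD and 0.0115, 0.0454 and 0.0495 in control. Those values rest on 4, 2 and 7 fragments in CKD and 4, 14 and 14 in control, and the log2 difference was -0.029 ± 0.022 SE (adjusted p = 0.489). On the log2(FPKM + 1) scale values near 0 differ little whatever their ratio. The ratio of mean FPKM in CKD to control was 0.413 for Phex and 0.227 for Bglap. The authors' deposited log2 fold changes were -1.33 for Phex (q = 0.452) and -2.27 for Bglap (q = 0.402).

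**Figure D3:**
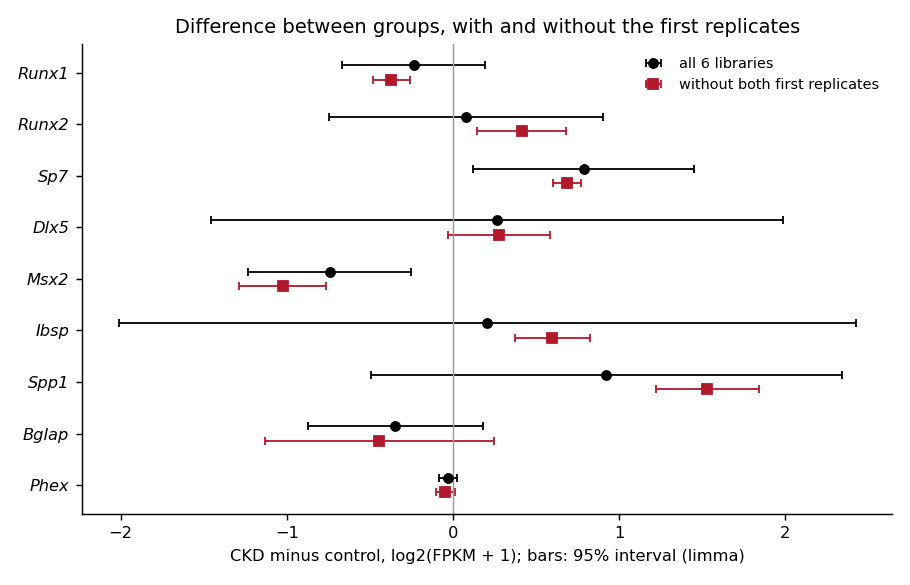
Difference between CKD and control on the log2(FPKM + 1) scale (horizontal axis) for each of the 9 genes, with 95% intervals from limma without a level requirement, over all 6 libraries (black) and without the first replicate of each group (red). With all 6 libraries the intervals of Sp7 (0.12 to 1.45) and Msx2 (-1.23 to -0.25) lie on 1 side of 0 before adjustment over all genes. Without the first replicates most intervals are narrower. Values near 0, as for Phex, give short intervals on this scale.

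The width of these intervals depended on the first replicates. Without both of them, a comparison added after the data had been seen, 6 of the 9 members were called by limma without the level requirement. Sp7 (log2 difference 0.69), Ibsp (0.60), Runx2 (0.41) and Spp1 (1.53) were higher in CKD, and Runx1 (-0.37) and Msx2 (-1.02) were lower. In that fit 41.4% of all genes were called. It compares 2 libraries with 2, and the libraries of each pair were nearly alike (r = 0.996 and 0.998 across genes). Whether its spread is that of separate animals or of technical repeats was not tested. Library names that share a start join other pairs, CKD replicates 1 and 3 (r = 0.944) and control replicates 1 and 2 (r = 0.951). With the level requirement, 3 of 3 tested members were called, against 55.0% of the tested genes. Without control replicate 1 alone, Runx1 and Msx2 were the called members (2 of 9, against 7.03% of all genes). Without CKD replicate 1 alone, only Spp1 was (1 of 9, against 14.6%). With the level requirement 1 of 3 was called in each of these, against 12.0% and 15.1% of tested genes. Without both libraries with conflicting tags Spp1 was called with that requirement, 1 of 3 against 2.8%, and no longer without it.

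The order of the libraries itself was shared by several osteoblast genes. Both first replicates stood above the other 4 libraries in 3 of the 9 members (Runx2, Dlx5 and Ibsp), against 10.4% of all 16690 genes, and below the other 4 in 2 members (Runx1 and Spp1), against 15.6%. A further 3 lists (osteoblast regulators, bone matrix and mineralization, and receptors of osteopontin and bone sialoprotein) held 49 genes in the table. Of these, 13 had both first replicates highest and 10 had both lowest. The 9 receptors held 0 of the former and 2 of the latter. Alpl, the phosphatase that makes phosphate available for mineral, stood at 40.7, 7.54 and 9.22 FPKM in CKD and 19.4, 3.99 and 3.56 in control. Col1a1, the main collagen chain of bone, stood at 5299, 2712 and 2620 FPKM in CKD and 5881, 2858 and 3000 in control, and Sparc, which binds collagen and calcium, at 4961, 3422 and 3692 against 4993, 4116 and 4156. None of the 3 was called over all 6 libraries (limma adjusted p = 0.524, 0.870 and 0.676). Without both first replicates, in the fit with the level requirement, Alpl was called as higher and Sparc as lower in CKD. In that fit 55.0% of the 10638 tested genes were called. Runx2 in CKD replicate 1 (2.68 FPKM) was barely above CKD replicate 2 (2.60), so its place in this order is weak.

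**Figure D4:**
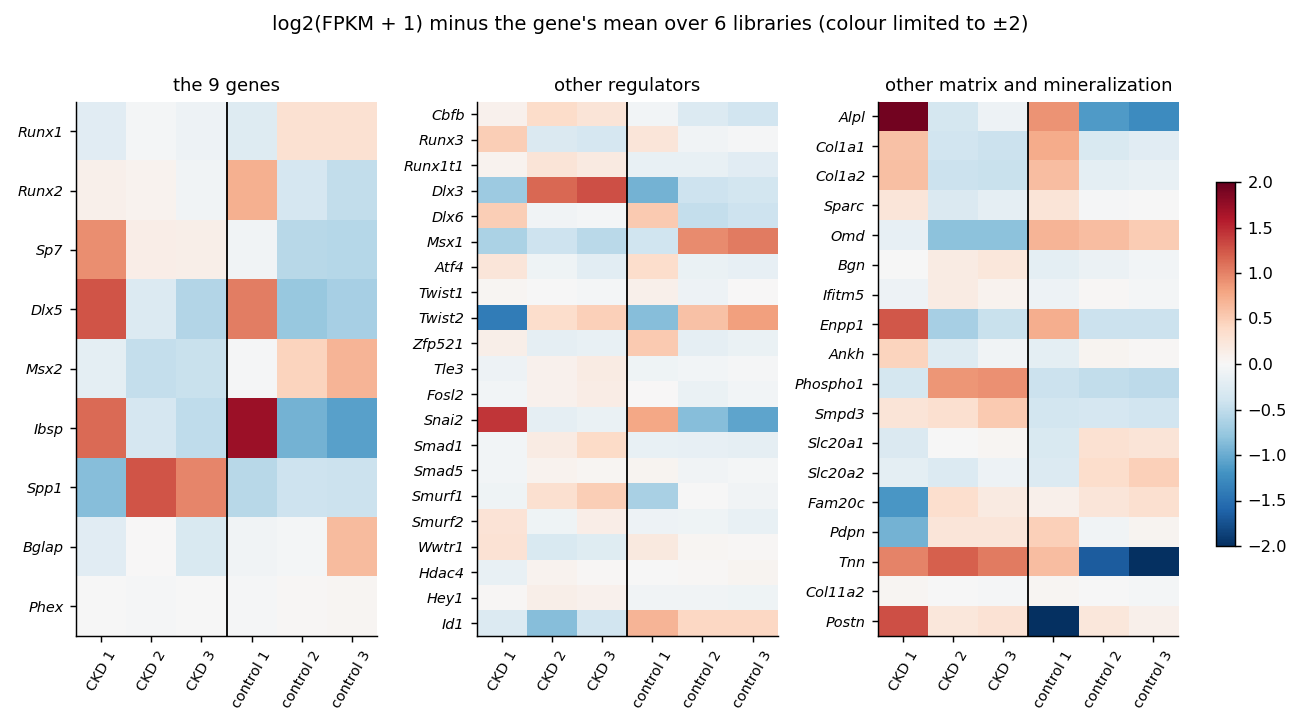
Heat map of log2(FPKM + 1) minus each gene's mean over the 6 libraries, with libraries as columns (CKD left of the black line, control right) for the 9 genes, other osteoblast regulators and 18 other matrix and mineralization genes; red is above the mean, blue below, and colours stop at 2 on either side. Dlx5, Ibsp, Alpl and Col1a1 are red in the first replicate of both groups, while Spp1 is red in CKD replicates 2 and 3.

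Other genes of the pathway were compared through 3 lists, with 40 of their 55 genes tested. Of 22 other regulators of osteoblasts, 19 were tested and 0 were called (5 had an unadjusted p under 0.05, as did 2354 of the 10638 tested genes). The median log2 difference was 0.036, with 10 positive and 9 negative, while over all tested genes the median was 0.053 with 59.4% positive. Atf4, a stress-responsive factor that drives osteocalcin, was abundant and higher in both first replicates, at 257 and 278 FPKM against 187 to 205 in the others (limma adjusted p = 0.930). Limma-voom on recovered fragments called 0 of the 40 genes.

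Of 24 further genes of bone matrix and mineralization, 14 were tested, and 1 was called. Omd (osteomodulin), a small proteoglycan of bone, was lower in CKD, at 3.22, 1.69 and 1.67 FPKM against 6.63, 6.27 and 5.76 (log2 difference -1.21 ± 0.20 SE, limma adjusted p = 0.0471). Over the other fits its adjusted p ran from 1.22e-05 to 0.690. Among the alternatives that kept the level requirement, the call held without either or both first replicates and without both libraries with conflicting tags. It was lost in the others, limma-voom and a pseudocount of 0.1 among them, and over all 6 libraries without that requirement. The list's median log2 difference was -0.14, with 6 positive and 8 negative. Smpd3, a sphingomyelinase needed for mineralization, was under the level required for testing and was called as higher in CKD in the fit without that requirement, at 0.909, 0.988 and 1.28 FPKM against 0.231, 0.260 and 0.216 (limma adjusted p = 0.0356, from 0.00362 to 0.735 over the fits that held it). The authors' deposited table gives q-values of 0.000232 for Omd and 2.26e-13 for Smpd3, where 11.3% of all genes were under 0.05. The markers of osteocytes and dentin Dmp1, Mepe, Dspp, Sost and Fgf23 were listed too but were not among the 18 genes found by name. No level can be given for them.

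Receptors of osteopontin and bone sialoprotein showed no called difference over all 6 libraries. Of 9 such genes, 8 integrin subunits and Cd44, 7 were tested and 0 were called, with a median log2 difference of 0.13. An unadjusted p under 0.05 was found for 2 of them, beside 2354 of the 10638 tested genes. Itgav stood between 54.3 and 65.7 FPKM in all libraries (limma adjusted p = 0.435). Its partner Itgb3 measured 3.97, 3.10 and 3.49 FPKM in CKD and 0.855, 2.68 and 2.29 in control (adjusted p = 0.223). Cd44, a hyaluronan receptor that also binds osteopontin and is expressed by macrophages, stood at 73.2, 91.2 and 90.0 FPKM in CKD and 62.5, 60.6 and 56.8 in control. All CKD libraries were above all controls for both Itgb3 and Cd44, but the difference of Cd44 was not called (log2 difference 0.49 ± 0.11 SE, limma adjusted p = 0.0912). Such separation held for 4 of the 9 genes, against 16.9% of all 16690 genes. The authors' deposited table gives Cd44 a q-value of 0.0045, where 11.3% of all genes were under 0.05.

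Markers of further cell types were followed as a check on what the cultures held, and 0 of their tested members were called by limma or limma-voom. In limma, 4 of 4 tested adipocyte markers and 1 of 6 stromal markers (Thy1) had an unadjusted p under 0.05, and 0 of the chondrocyte and smooth muscle markers did. Among all 10638 tested genes 2354 did. Endothelial markers were nearly absent, with a summed level between 0.298 and 2.42 FPKM over 5 genes. The adipocyte markers had a summed level of 17.4, 168 and 177 FPKM in CKD and 13.8, 6.12 and 6.38 in control. In CKD replicates 2 and 3 it came mostly from Fabp4 and Lpl, which macrophages also express, while Pparg, the regulator of fat cell formation, was highest in CKD replicate 1, at 2.00 and 2.37 FPKM in CKD replicates 2 and 3, and lower in every control. Of 5 chondrocyte markers, 3 were in the table. They were summed to 57.5 FPKM in CKD replicate 1, where Acan alone stood at 48.6, and to between 3.16 and 12.8 in the others. Smooth muscle markers were summed to 9254 FPKM in CKD replicate 1 and to between 3618 and 5201 in the others. Mesenchymal stromal markers were summed to between 1591 and 2280 FPKM in all 6 libraries, mostly from Itgb1 and Thy1. The rest of that list varied more between libraries. Eng measured 10.8, 20.4 and 21.8 FPKM in CKD and 11.8, 83.4 and 88.8 in control. Pdgfra stood at 16.7, 46.0 and 44.3 against 39.9, 67.9 and 69.6. Nt5e stood at 8.79, 38.8 and 36.4 against 8.53, 15.9 and 16.1, and Pdgfrb at 119, 134 and 149 against 58.8, 115 and 118.

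The genes whose levels ran most alike to each tested member are given as a description over 6 libraries that fall into clusters. Such high values are common at this size, since 65 to 262 of about 6708 compared genes had r above 0.95 with a given member. For Spp1 they were Plau (Pearson r = 0.999), which encodes urokinase and measured 83.1 and 66.3 FPKM in CKD replicates 2 and 3 and between 6.88 and 11.5 in the others, Il13ra1 (r = 0.999) and Gbe1 (r = 0.997). For Runx1 they were Spop (r = 0.996), Hprt1 (r = 0.994) and Oaz1 (r = 0.994). For Runx2 they were Retreg1 (r = 0.998), Pfdn1 (r = 0.993) and Tmed9 (r = 0.992), all highest in control replicate 1.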

How the data were processed

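Poly-A selected, stranded libraries were sequenced, per the labels' protocols. Whether they held RNA of the cultured rat marrow stromal cells or of exosomes is not settled by the labels. The submitters' processing notes list, with no order or settings, the aligner HISAT2 2.1.0, the counter HTSeq 0.11.2, the tests DESeq 1.34.1 and DESeq2 1.22.2, the tools SAMtools 1.9 and FastQC 0.11.9, and the build mRatBN7.2. Per the file headers, the authors deposited FPKM values per library, mean normalized counts per group, the CKD over control ratio with its log2, and p-values with q-values, written with decimal commas.

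Fragment counts were recovered from the FPKM values and the group means, and all 100140 values came out whole within 0.01 (largest deviation 0.000379). The CKD libraries held 38586674, 34404037 and 43055203 fragments, in replicate order, and the controls 46892613, 41742848 and 38289955. Floors of 3 fragments cover counting error only.

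The groups were compared on log2(FPKM + 1), computed from the deposited FPKM, with the moderated two-sided test of limma 3.58.1 under R 4.3.3, using a trended variance and no covariate. P-values were adjusted by Benjamini-Hochberg over the 10638 genes that reached 1 FPKM in 3 or more libraries, which left out 6052. The fit was tested on simulated data with 200 changed genes. Those data had a limited spread and no clusters of libraries such as those seen here, so that check does not cover them. An exact permutation test of 3 against 3 cannot go below p = 0.1 and was not used. The members, the gene lists and the tests were chosen with earlier results of these data known, and no p-value is adjusted over a list alone. Named genes are all members, called list members, a set of partners and markers and, for each tested member, the 3 genes with the highest Pearson r among those with a mean of at least 5 FPKM. Dlx6, Smpd3, Id1, Smad1, Smad5, Smurf1, Pparg, Fabp4, Lpl, Eng, Nt5e, Pdgfra, Pdgfrb, Acan, Supt3h, LOC120094793, C1qc, C1qb and Adgre1 were named after their values had been seen. A listed regulator is counted with its list but not reported here by itself.

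Replicates follow the column codes; nothing ties each library to its own animal, so p-values measure the spread between libraries, which may be partly technical. Library names CKD4-1 and CKD4-2 (CKD replicates 1 and 3) and con9-1 and con9-2 (control replicates 1 and 2) share a start. Alternatives were other pseudocounts, filters and scaling, left-out libraries, a replicate block, a marker covariate, groups by tag, limma-voom on recovered fragments and the authors' values. Gene IDs of all 9 members matched the GRCr8 gene table, which is used for neighbouring genes only, since its build differs.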

Additional observations from a re-analysis of the deposited data

How the results depend on the processing

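The count of called members was 0 under most alternatives. With the level requirement (3 members tested) it was between 0 and 1 when a library was left out (1 without CKD replicate 1, where 15.1% of tested genes were called, or control replicate 1, 12.0%), 1 without both libraries with conflicting tags (2.8%) and 3 without both first replicates (55.0%). Without that requirement (9 tested) it was 2 without control replicate 1 (7.03%), 6 without both first replicates (41.4%) and 1 with CKD replicate 1 left out (14.6%), and it was 1 of 9 by the authors' q-values (11.3%). The number of called genes on the 3 lists of other pathway genes, receptors included, was 1 (Omd) of 40. It was 0 with a pseudocount of 0.1, upper quartile scaling, the marker covariate, groups by the disease model tag or limma-voom, between 0 and 7 when a library was left out, 27 without both first replicates (beside the same 55.0%) and 11 of 49 by the authors' q-values. Without a filter, or with one of 10 fragments in 3 libraries, it was also 1, but the gene was Smpd3, as in limma-voom with that filter. With the replicate number as a block, 0 members and 0 list genes were called. Whether the numbers pair the libraries is not known. Deviations of same-numbered libraries from their group means correlated at only 0.036, -0.031 and 0.109, while CKD replicate 1 was nearest to control replicate 1 (r = 0.967).

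Bglap and Msx2 kept their direction in all alternatives tried. Grouped by the disease model tag, the log2 difference turned for Runx1 (0.12), Runx2 (-0.21), Sp7 (-0.20), Dlx5 (-1.08), Ibsp (-1.18) and Phex (0.00014). With the marker covariate it turned for Runx2 (-0.37), Ibsp (-0.073) and Spp1 (-0.24), and without both libraries with conflicting tags for Runx2 (-0.10), Dlx5 (-0.61) and Ibsp (-0.73). The authors' log2 fold change was negative for Runx2 (-0.12) and Ibsp (-0.36). When a library was left out, values ran from -0.42 to -0.14 for Runx1, from 0.52 to 0.95 for Sp7, from -0.93 to -0.58 for Msx2, from 0.53 to 1.58 for Spp1, from -0.47 to -0.12 for Bglap and from -0.046 to -0.019 for Phex, and turned sign, from -0.15 to 0.45 for Runx2, from -0.30 to 0.84 for Dlx5 and from -0.31 to 1.12 for Ibsp. The causes were not tested. The filter on 10 fragments, the fits without both first replicates and the unfiltered fits with a library left out were chosen after seeing the data.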
